A study of Mus musculus with 4 samples.

Results

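Cytochrome P450 genes were followed in the nasal mucosa of young adult and aged mice. They were taken as all genes whose symbol begins with Cyp and a digit, found from the accession of each non-control probe through a RefSeq gene table, with no use of the measured values. This gave 101 genes, read by 122 probes, among the 45604 genes tested. Of the 101 genes, 83 have 1 probe and 18 have more, up to 4 probes for *Cyp2j13*. They fall into 17 families and 40 subfamilies, and 4 of them carry a pseudogene symbol.

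The study placed RNA of nasal mucosa, titled olfactory epithelium, on 4 one-colour arrays with Cy3 label. The young adult group is C57BL/6 mice of 8 weeks on 2 arrays, and the aged group is C57BL/6 mice of 16 months on 2 arrays. Each array holds RNA pooled from 5 mice, which the labels give as male, so differences between single animals cannot be seen. The labels also describe lung and aspirated silica, at odds with the titles and the study's methods, and this description was not used. A single slide carried young adult array 1 and aged array 1, while young adult array 2 and aged array 2 had separate slides. The scanner software calls spots well above background or not, and the share of non-control spots so called was 68.1 and 76.8% for young adult mice and 63.1 and 72.7% for aged mice. Local background had a median of 67 and 32 for young adult mice and 63 and 39 for aged mice. The number of arrays limits the precision, and for dim probes so does the signal over background.

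The tissue was checked against its markers. *Omp*, the marker protein of mature olfactory neurons, had a normalized intensity of 300826 and 286061 in the young adult pools and 317836 and 332591 in the aged pools. *Ermn*, which marks the sustentacular cells that support those neurons, was at 60382 and 56896 in the young adult pools and 62126 and 66480.1 in the aged pools. *Scgb1a1*, the defining product of club cells in lung airways, was at 37.3 and 73 in the young adult pools and 52.2 and 48.4 in the aged pools, above background on 1 array of each age. Olfactory epithelium was thus present on all 4 arrays, and *Scgb1a1* was near background. Of 5 club and goblet cell markers, however, 4 were well above background on all 4 arrays. *Scgb3a2* was among them, at 110.2 and 169 in the young adult pools and 188 and 139 in the aged pools. The description of lung on the labels was not tested further. The sex on the labels did not match the arrays. *Xist*, the RNA that coats the inactive X chromosome in female cells, was at 645, 612, 644 and 637 on the 4 arrays, above background on each. Of 7 genes of the Y chromosome, 6 were not detected on any array at the level called well above background, and *Sry* reached that level on 1 young adult array only. *Xist* had a log2 fold change of 0.027 between the ages.

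P450 enzymes are haem proteins, most of them anchored in the endoplasmic reticulum, that insert oxygen into their substrates with electrons passed on by a reductase. The olfactory mucosa is known for its rich P450 content, held mainly by sustentacular cells and Bowman's glands, where the enzymes oxidise odorants and inhaled chemicals. Other P450 families make or break down steroid hormones, sterols, bile acids, fatty acids, vitamin D and retinoic acid.

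Of the 101 P450 genes, 57 were well above background on all 4 arrays, 17 on some arrays and 27 on none, and 62 were so on both arrays of the young adult group, the aged group or each of them. A gene was called when limma's test gave a p under 0.05 and a Benjamini-Hochberg adjusted p under 0.25 over all genes tested. By this rule 9 P450 genes (8.91%) were higher in aged mice, against 1.65% of all genes tested, and 4 P450 genes (3.96%) were lower, against 2.33% of all genes. A DEG also needed a mean normalized intensity of at least 100 over the 4 arrays and a fold change of at least 1.5. There were 5 such P450 genes higher in aged mice (4.95%), against 0.814% of all genes, and 1 lower (0.99%), against 1.15%. The 5 are *Cyp2e1*, *Cyp2b13*, *Cyp3a13*, *Cyp4a12b* and *Cyp1a1*, and the 1 is *Cyp26b1*. The median log2 fold change of the P450 genes was 0.033, beside 0.0093 for all genes, with 52 of them higher and 49 lower. The arrays of the ages did not overlap for 53 of the 101 genes (52.5%), against 46% of all genes, a share near the background. Among genes well above background on all 4 arrays, 8 of 57 P450 genes (14%) were higher and 1 (1.75%) was lower, beside 2.11% and 3.07% of all such genes.

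The calls rest on few arrays. With 2 arrays against 2, the smallest p an exact permutation test can reach for one gene is 0.333. Each call by limma rests on a spread that joins the gene's own (2 residual degrees of freedom) with one pooled across genes (1.38 prior). The p-values measure only the spread between these pools, and whether pools of the same age share mice is not stated by the study. For its gene work the study counts fewer mice of each age than 2 pools of 5 different mice require. Pools of an age may thus hold some of the same mice, and the SDs given here and each n = 2 carry that limit. With young adult array 1, young adult array 2, aged array 1 or aged array 2 left out, limma called 0 of the 101 genes in each case, and the smallest adjusted p of any gene on the array was 0.44, 0.458, 0.677 and 0.408. At an unadjusted p under 0.05 these 4 fits held 11, 13, 11 and 17 higher P450 genes and 9, 7, 6 and 7 lower ones. The shares of all genes at that p were 4.87, 4.16, 3.52 and 5.8% higher and 6.44, 6.29, 3.7 and 5.8% lower, so the lower P450 counts of 6 to 9 in 101 are near the background. With all arrays 16 P450 genes were higher and 8 lower at that p, beside 6.05% and 7.08% of all genes. With each array left out, the log2 fold change ran from 0.94 to 1 for *Cyp2e1*, 0.89 to 1.08 for *Cyp2b13* and 0.9 to 0.95 for *Cyp3a13*. It ran from 0.71 to 0.82 for *Cyp4a12b*, 0.63 to 0.75 for *Cyp1a1* and -0.87 to -0.77 for *Cyp26b1*. In this bulk tissue, fewer cells of a type and less RNA per cell cannot be told apart.

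**Figure D1:**
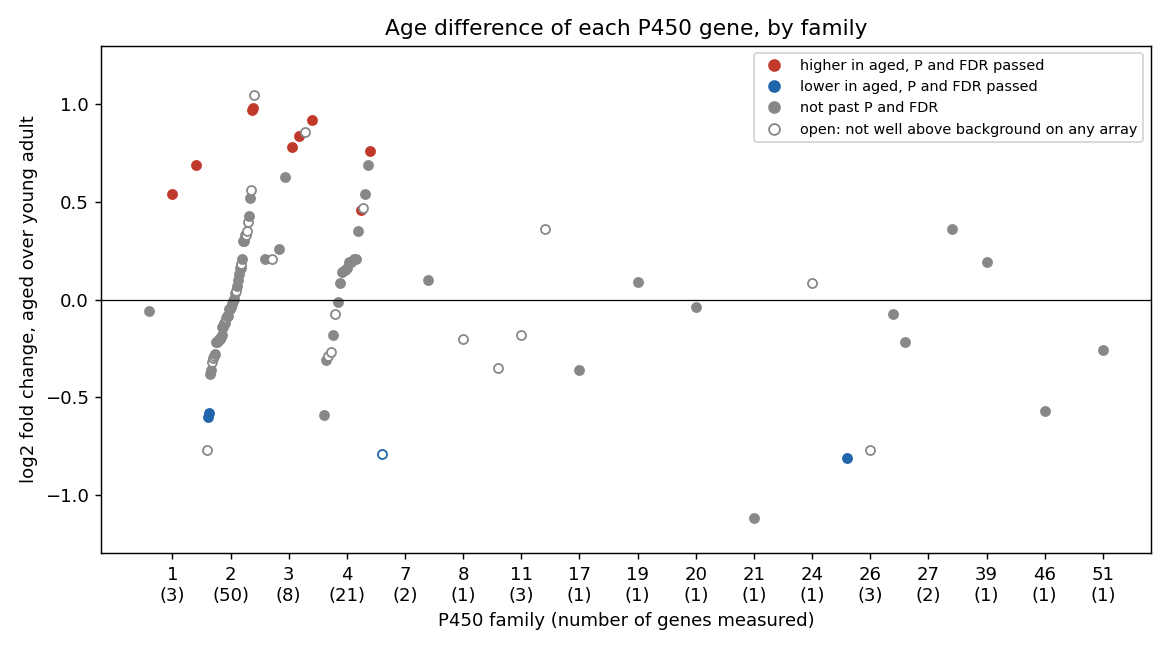
Log2 fold change (aged over young adult, vertical axis) of each of the 101 P450 genes, set out by family (horizontal axis, with the number of genes measured), with 1 point per gene. Red and blue points are the 9 higher and 4 lower genes past the p and adjusted p limits, and open points are the 27 genes not well above background on any array.

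The differences of *Cyp2e1* and *Cyp26b1* had the same sign within one slide and across slides. A call by limma favours genes whose arrays of an age differ little. Called genes are thus close in both comparisons by selection, and this does not test the slide. Their ages also lie apart by selection, so a lack of overlap stated for a called gene only describes its values. *Cyp2e1* differed by 0.99 on the log2 scale between aged array 1 and young adult array 1, which share a slide, and by 0.95 between the other two arrays. For *Cyp26b1* these differences were -0.84 and -0.78, each from a single array per age and not tested. *Cyp2j13*, an enzyme of the arachidonic acid group, shows the opposite case, with 1.12 within the slide and -0.26 between the other arrays. Of its 4 probes, the one behind that gap stood at 227 on aged array 1 and at 25, 21.4 and 23.4 on the other arrays, where it was not well above background. The gene was not called (adjusted p = 0.739 by limma).

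**Figure D2:**
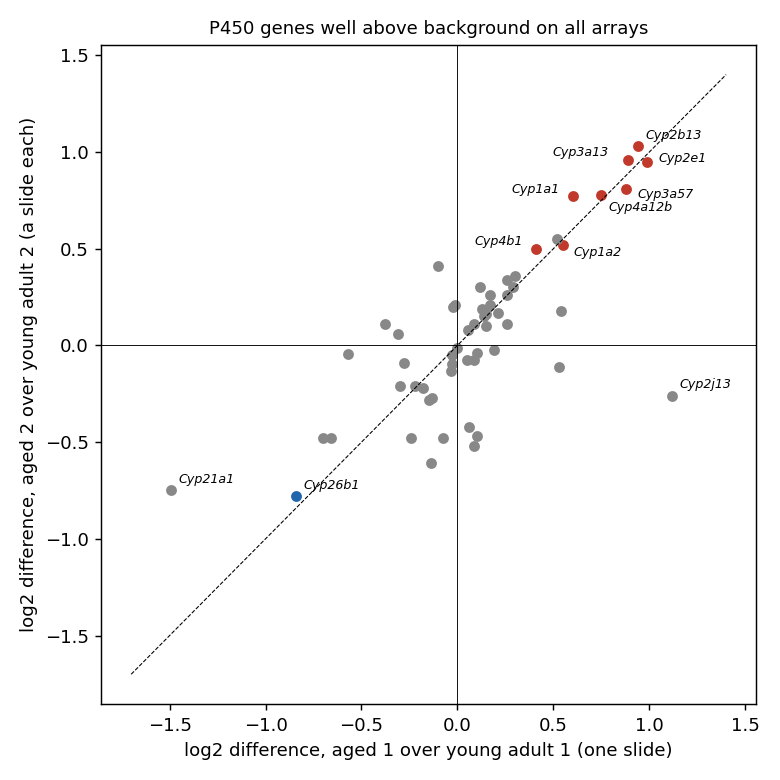
Log2 difference between the arrays that share a slide (horizontal axis) against that between the arrays on slides of their own (vertical axis), for the 57 P450 genes well above background on all arrays, with 1 point per gene and a dashed line where both are equal. Called genes (red higher, blue lower) lie near the line, which the call itself favours, and *Cyp2j13* lies far from it at 1.12 and -0.26.

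Families 1 to 3, which oxidise drugs, pollutants and other foreign compounds, hold 61 of the genes. Of these, 7 were called higher (11.5%) and 2 lower (3.28%), beside 1.65% and 2.33% of all genes, the background for each family below. Their median log2 fold change was 0.033. Its sign was not stable, with -0.015 without young adult array 1, 0.15 without young adult array 2 and -0.0021 without aged array 1. With all arrays it was 0.12 with processed signal of the scanner software at 75th percentile scaling and -0.0059 with only probes well above background (18 higher and 19 lower). This filter left 37 genes, while 32 were well above background on all arrays. Some genes, such as *Cyp2c66*, passed it through 1 age alone, so it depends in part on the change and does not test the sign. The first family is small and is switched on by the aryl hydrocarbon receptor. *Cyp1a1*, which oxidises polycyclic aromatic hydrocarbons, had a normalized intensity of 4889.8 and 4487 in the young adult pools and 7423 and 7673 in the aged pools. Both aged pools lay above both young adult pools, and the gap was several times the spread within either age. The means were 4689 ± 285 (SD, n = 2 pools) and 7548 ± 176, a log2 fold change of 0.69 (standard error 0.09, adjusted p = 0.201 by limma). *Cyp1a2*, its neighbour on chromosome 9, acts on aromatic amines and was at 5745 and 5649.8 in the young adult pools and 8437 and 8115 in the aged pools. The aged pools were again the higher ones, without overlap, and the log2 fold change was 0.54 (standard error 0.077, adjusted p = 0.209 by limma). Its fold change of 1.45 fell short of the limit of 1.5, so it is called but is no DEG. *Cyp1b1*, the third member, which hydroxylates oestrogens, stayed at 446 and 472 in the young adult pools and 438 and 442 in the aged pools (log2 fold change -0.061, adjusted p = 0.783 by limma). The receptor itself, *Ahr*, was at 3066 and 2999 in the young adult pools and 2698 and 2657 in the aged pools, and was not called (log2 fold change -0.18, adjusted p = 0.451 by limma). Its partner *Arnt* had a log2 fold change of 0.004 (adjusted p = 0.986 by limma), and its repressor *Ahrr* was well above background on 1 young adult array only.

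The bases before the start of *Cyp1a1* and *Cyp1a2* are shown because these neighbouring genes rose together. They are RefSeq sequences of the GRCm38.p6 assembly, 250 bases each, from chr9:57697363-57697612 on the plus strand and chr9:57683656-57683905 on the minus strand. Capitals mark TATAAA, a core promoter element, and GCGTG, the core letters bound by the aryl hydrocarbon receptor, both searched on either strand; the matches in these sequences do not overlap.
Cyp1a1: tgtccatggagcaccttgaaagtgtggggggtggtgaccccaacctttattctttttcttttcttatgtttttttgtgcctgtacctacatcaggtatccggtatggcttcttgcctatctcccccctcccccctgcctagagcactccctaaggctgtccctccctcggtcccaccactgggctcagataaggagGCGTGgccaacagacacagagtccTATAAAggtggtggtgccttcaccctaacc
Cyp1a2: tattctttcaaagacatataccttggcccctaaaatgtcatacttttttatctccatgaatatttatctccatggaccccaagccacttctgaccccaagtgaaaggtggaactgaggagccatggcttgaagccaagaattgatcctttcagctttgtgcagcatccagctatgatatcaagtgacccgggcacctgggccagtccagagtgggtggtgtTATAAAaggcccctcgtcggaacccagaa
In *Cyp1a1* the TATAAA begins 30 bases and the GCGTG 54 bases before the start, and in *Cyp1a2* a TATAAA begins 29 bases before it. No GCGTG is in the window of *Cyp1a2*. A match is a description of the letters and shows no binding.

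*Cyp2e1*, which oxidises ethanol, acetone and small solvents, rose with age. Its intensity was 3254 and 3409.6 in the young adult pools and 6474 and 6601 in the aged pools. The aged pools were nearly equal and stood far above the young adult pools. The means were 3332 ± 109.8 and 6538 ± 89.4 (SD, n = 2 pools), a fold change of 1.96 (log2 0.97, standard error 0.079, adjusted p = 0.178 by limma). Both of its probes showed the rise. The mean of one was 1593 in young adult and 3096 in aged mice (log2 fold change 0.96), and that of the other was 6968 and 13803 (0.99).

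The *Cyp2b* genes are known for their induction by phenobarbital and for sex-dependent forms in mouse liver. There are 5 on the array, of which 1 was called higher. *Cyp2b13*, a form predominant in females in liver, was at 152 and 134 in the young adult pools and 293 and 274 in the aged pools. The lowest aged value was far above the highest young adult value. The means were 143 ± 12.6 and 283 ± 13.2 (SD, n = 2 pools), a fold change of 1.98 (log2 0.98, standard error 0.11, adjusted p = 0.187 by limma). *Cyp2b9*, another such form, was at 7905 and 7176 in the young adult pools and 9730.2 and 9232 in the aged pools (log2 fold change 0.33, adjusted p = 0.336 by limma). *Cyp2b10*, the main phenobarbital-inducible form, was at 4588 and 4494 in the young adult pools and 5487 and 5685 in the aged pools (log2 fold change 0.30, adjusted p = 0.309 by limma). Neither was called, although the pools of the ages did not overlap for either gene. *Cyp2b19*, a keratinocyte form, had a log2 fold change of -0.28 (adjusted p = 0.511 by limma), and *Cyp2b23* was not well above background on any array.

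The bases before *Cyp2e1* and the pair *Cyp2b13* and *Cyp2b9* are shown because of the rise of the first and because the pair has nearly the same sequence but different age values. They lie at chr7:140763569-140763818 on the plus strand, chr7:26061245-26061494 on the plus strand and chr7:26173159-26173408 on the plus strand of the same assembly. Capitals mark TATAAA in *Cyp2e1* and, in the pair, AGGTCA, the hexamer bound by many nuclear receptors, searched on both strands.
Cyp2e1: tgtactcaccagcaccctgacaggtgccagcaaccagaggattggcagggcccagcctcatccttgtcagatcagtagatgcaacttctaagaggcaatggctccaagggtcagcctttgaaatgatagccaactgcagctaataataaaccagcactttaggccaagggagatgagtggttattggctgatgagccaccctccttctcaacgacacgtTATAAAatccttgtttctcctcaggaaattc
Cyp2b13: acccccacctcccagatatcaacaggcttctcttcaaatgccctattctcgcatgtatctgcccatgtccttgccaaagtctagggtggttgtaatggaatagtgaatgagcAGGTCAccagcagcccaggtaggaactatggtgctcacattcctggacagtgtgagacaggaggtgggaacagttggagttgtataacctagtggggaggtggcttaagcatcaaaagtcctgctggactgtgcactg
Cyp2b9: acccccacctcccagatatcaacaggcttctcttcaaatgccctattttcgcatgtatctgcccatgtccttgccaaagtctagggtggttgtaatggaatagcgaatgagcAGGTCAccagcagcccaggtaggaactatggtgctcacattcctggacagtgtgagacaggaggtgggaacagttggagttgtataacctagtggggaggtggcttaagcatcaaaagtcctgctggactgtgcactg
The TATAAA of *Cyp2e1* begins 31 bases before the start. The AGGTCA begins 138 bases before it in both *Cyp2b* genes, whose windows differ at 2 of 250 places (99.2% the same). How far a probe of one such gene also reads the transcripts of another is uncertain, and this holds for the *Cyp2a*, *Cyp2b*, *Cyp2c*, *Cyp2d*, *Cyp3a* and *Cyp4a12* probes alike, since the array files hold no probe sequences.

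Some P450 enzymes known from the nose differed little between the ages, while *Cyp4b1*, also known from there, was called higher and is given with family 4. *Cyp2a5*, which oxidises coumarin and nicotine, was at 317851 and 332582 in the young adult pools and 341668 and 323665 in the aged pools. *Cyp2f2*, which activates naphthalene, was at 252657 and 249555 in the young adult pools and 262161 and 264107 in the aged pools. *Cyp2g1*, a form largely restricted to olfactory mucosa, was at 229701 and 221117 in the young adult pools and 251222 and 252656 in the aged pools. The ages overlapped for *Cyp2a5* and did not for the other two, whose aged pools were slightly higher. The log2 fold changes were 0.033, 0.068 and 0.16, with adjusted p of 0.892, 0.739 and 0.498 by limma. *Cyp2a4*, a testosterone hydroxylase, was at 402647 and 405957 in the young adult pools and 402644 and 402647 in the aged pools. These values lie at the top of the array, where quantile normalization gives all arrays nearly the same values, and the log2 fold change of -0.0059 became 0.07 with scaling to the 75th percentile and 0.046 with cyclic loess. *Cyp2a22*, of the same subfamily, was at 61771 and 65889 in the young adult pools and 75576 and 81086 in the aged pools, without overlap and not called (log2 fold change 0.30, adjusted p = 0.354 by limma). *Cyp2a12*, the last of the 4 *Cyp2a* genes, was not well above background on any array. *Cyp2s1*, a form of epithelial surfaces, was at 10882 and 10985 in the young adult pools and 9337 and 9494 in the aged pools. Its aged pools were the lower ones, but it was not called (log2 fold change -0.22, adjusted p = 0.39 by limma).

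**Figure D3:**
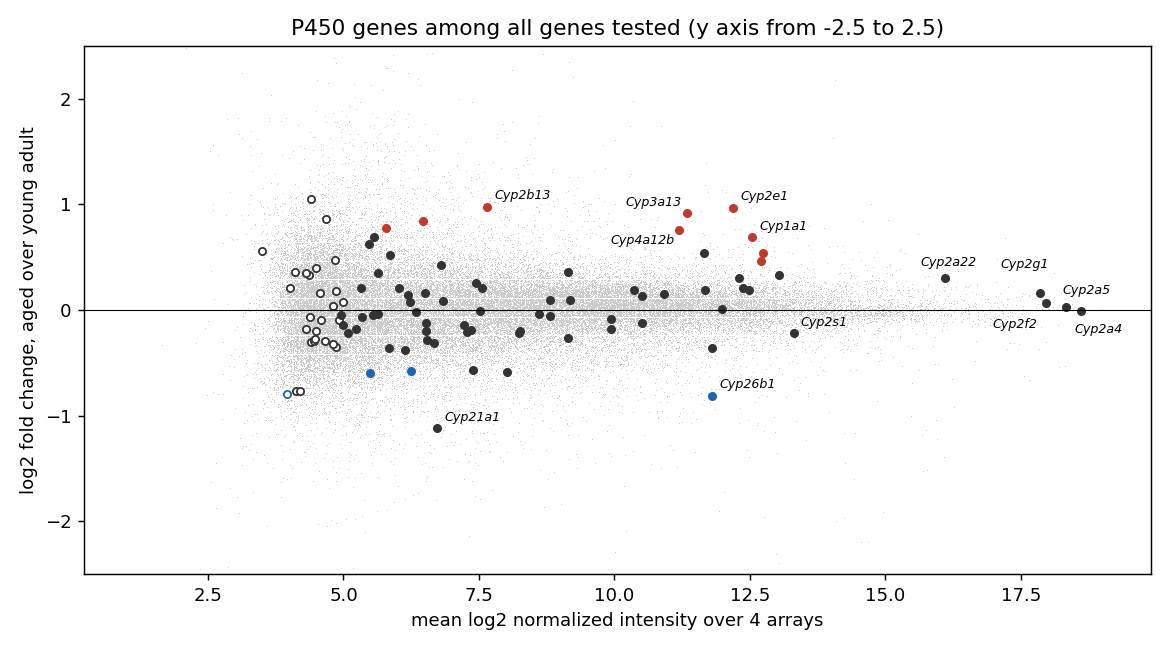
Log2 fold change (aged over young adult, vertical axis) against the mean log2 normalized intensity over the 4 arrays (horizontal axis) for the P450 genes (dark, red or blue points) and all genes tested (grey). *Cyp2a4*, *Cyp2a5*, *Cyp2f2* and *Cyp2g1* lie between -0.0059 and 0.16, while the red points of *Cyp2e1*, *Cyp2b13* and *Cyp3a13* lie between 0.92 and 0.98.

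The *Cyp3a* genes on chromosome 5 oxidise steroids and a wide range of drugs. Of 8, 3 were called higher and 0 lower, and their median log2 fold change was 0.71. All 8 had a positive log2 fold change, and 7 of 8 did with no background correction or with the scanner software's own signal, under either scaling, and without young adult array 2. Only 3 of the 8 were well above background on all arrays and 2 were so on none, so the median rests in part on dim probes. It was 0.31 with an offset of 50, 0.45 with no background correction, and 1.03 and 0.94 with the scanner software's own signal at 75th percentile scaling and quantile normalized. *Cyp3a13*, the form known from tissues outside the liver, was at 1908 and 1856 in the young adult pools and 3531 and 3603 in the aged pools. Its pools were tight within each age and wide apart between them. The means were 1882 ± 36.8 and 3567 ± 50.7 (SD, n = 2 pools), a fold change of 1.9 (log2 0.92, standard error 0.076, adjusted p = 0.178 by limma). Both other called *Cyp3a* genes had dim probes. *Cyp3a57* was at 61.5 and 71.4 in the young adult pools and 113 and 125 in the aged pools (log2 fold change 0.84, adjusted p = 0.21 by limma), with a mean of 92.8 that is under the limit for a DEG. *Cyp3a25* was at 39 and 44.8 in the young adult pools and 66.7 and 77.7 in the aged pools, well above background on 1 array of each age, so its call (adjusted p = 0.236 by limma) has no firm fold change. *Cyp3a11*, the main liver form, was at 157 and 163 in the young adult pools and 188 and 195 in the aged pools and was not called (log2 fold change 0.26, adjusted p = 0.351 by limma).

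The *Cyp2c* genes, on chromosome 19, oxidise drugs and arachidonic acid. Of 16, 2 were called lower and 0 higher, with 8 on each side of 0 and a median log2 fold change of 0.0037. With the processed signal of the scanner software the split was 12 higher and 4 lower at 75th percentile scaling, with a median of 0.4, and 11 and 5 when quantile normalized, with a median of 0.09. The median was -0.036 without young adult array 1, 0.15 without young adult array 2 and -0.065 without aged array 2. With only probes well above background it was -0.19, over 5 genes with 2 higher and 3 lower. Of the lower ones, *Cyp2c65* and *Cyp2c66* passed that filter only through the young adult arrays, where they were higher. The filter thus depends in part on the change, and nothing is drawn from its median. Only 3 of the 16 were well above background on all arrays. *Cyp2c65*, an intestinal form, was at 88.8 and 96.9 in the young adult pools and 60.4 and 63.5 in the aged pools, which cleared background on 2 young adult arrays and 1 aged array (adjusted p = 0.221 by limma). *Cyp2c66* was at 52.2 and 58.5 in the young adult pools and 38 and 35.1 in the aged pools. It cleared background on 2 young adult arrays and no aged array, and its measured values were 1.51-fold lower in aged mice (adjusted p = 0.241 by limma). Over the 12 alternatives that use all arrays its log2 fold change ran from -1.13 to -0.28, so the size of the fall is not firm. Neither call held with scaling to the 75th percentile, whose fit kept 1 of the 4 lower calls.

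The *Cyp2d* genes on chromosome 15, which oxidise drugs, had 0 called of 10 by limma, with 0 higher and 1 lower at an unadjusted p under 0.05. Of the 10, 9 had a negative log2 fold change, beside 22129 of the 45604 genes tested. Their median was -0.14 and their range from -0.36 to 0.18. Only 5 of the 10 were well above background on all arrays, 4 on some and 1 on none, so the count and the median rest in part on dim probes. The median was -0.25 without young adult array 1, -0.09 without young adult array 2 and -0.23 without aged array 2. The count of 9 was the same under each scaling tried, and it was 10 without young adult array 1, 7 without young adult array 2 or without aged array 1, and 8 without aged array 2. *Cyp2d13*, the gene at -0.36, was at 65.9 and 64 in the young adult pools and 51.1 and 50 in the aged pools (adjusted p = 0.267 by limma). It cleared background on 2 young adult arrays and 1 aged array. *Cyp2d22* was at 322 and 331 in the young adult pools and 284 and 284 in the aged pools (log2 fold change -0.20, adjusted p = 0.415 by limma). Among the other members of family 2, *Cyp2j6*, which makes epoxides of arachidonic acid, had a log2 fold change of 0.13 (adjusted p = 0.565 by limma).

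Family 4, the hydroxylases of fatty acid chain ends, has 21 genes, of which 2 were called higher and 0 lower. Their median log2 fold change was 0.16, with 14 higher and 7 lower, and it was 0.28 with processed signal of the scanner software at 75th percentile scaling. *Cyp4a12b*, which acts on arachidonic acid, was at 1879 and 1744 in the young adult pools and 3155 and 2997 in the aged pools. The aged pools were well above the young adult ones. The means were 1811 ± 95.5 and 3076 ± 111 (SD, n = 2 pools), a fold change of 1.7 (log2 0.76, standard error 0.089, adjusted p = 0.191 by limma). Its close paralog *Cyp4a12a* was at 2859 and 2506 in the young adult pools and 4112 and 3662 in the aged pools. These did not overlap either, but the young adult and the aged pools each varied more, and the gene was not called (log2 fold change 0.54, adjusted p = 0.283 by limma). *Cyp4b1*, known from lung and nose for activating furans, was at 5736 and 5617 in the young adult pools and 7646 and 7941 in the aged pools. The aged pools were higher without overlap, at a log2 fold change of 0.46 (standard error 0.077, adjusted p = 0.233 by limma) and a fold change of 1.37, under the limit for a DEG. Of 10 *Cyp4f* genes, which break down leukotrienes and long fatty acids, limma called 0, with 1 higher and 1 lower at an unadjusted p under 0.05. The lower one, *Cyp4f18*, known from neutrophils, was at 312 and 323 in the young adult pools and 193 and 231 in the aged pools. It missed the limit narrowly (log2 fold change -0.59, adjusted p = 0.268 by limma) and passed it in 9 of the 12 alternatives that use all arrays.

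**Figure D4:**
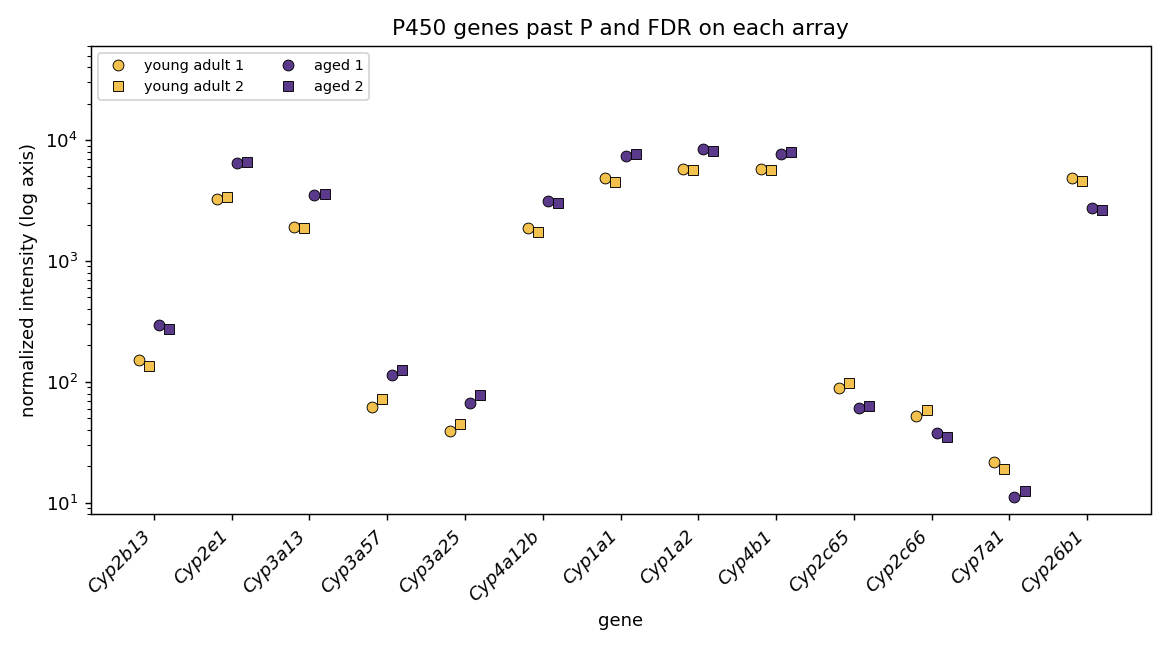
Normalized intensity (vertical log axis) of the 13 called P450 genes on each array, with young adult pools in yellow and aged pools in purple, and circles for the arrays that share a slide. The ages do not overlap for any of the 13, which the call itself favours, nor do they for 46% of all genes. The largest log2 fold changes are 0.98 for *Cyp2b13* and 0.97 for *Cyp2e1*.

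Families 7, 8, 27, 39, 46 and 51 act on sterols and bile acids and hold 8 of the genes. Of these, limma called 0 higher and 1 lower, at a median log2 fold change of -0.21 that became 0.18 with the processed signal of the scanner software at 75th percentile scaling and 0.015 with it quantile normalized. It was -0.09 with an offset of 50, -0.1 with no background correction, and -0.083, -0.082 and -0.11 without young adult array 1, young adult array 2 and aged array 2. With only probes well above background, which leave 5 genes, it was 0.1. The -0.21 lies midway between *Cyp27b1* and *Cyp8b1*, measured well above background on 1 array and on none. The called gene, *Cyp7a1*, the rate-limiting enzyme of bile acid synthesis, was at 21.8 and 19 in the young adult pools and 11.2 and 12.4 in the aged pools. No array measured it well above background, so its call (adjusted p = 0.216 by limma) has no fold change, and its sign turned with the processed signal of the scanner software at 75th percentile scaling (log2 fold change 0.51). *Cyp51*, which removes a methyl group from lanosterol on the way to cholesterol, was at 629.8 and 613 in the young adult pools and 511 and 528 in the aged pools. Its aged pools were the lower ones, without a call (log2 fold change -0.26, adjusted p = 0.346 by limma). *Cyp27a1*, which oxidises the side chain of cholesterol, was at 458 and 547 in the young adult pools and 665 and 621 in the aged pools (log2 fold change 0.36, adjusted p = 0.4 by limma). *Cyp7b1*, which hydroxylates oxysterols, had a log2 fold change of 0.10 (adjusted p = 0.648 by limma). *Cyp27b1*, which makes the active form of vitamin D, was well above background on 1 young adult array only.

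The 6 genes of steroid hormone synthesis, in families 11, 17, 19 and 21, gave 0 calls by limma, with 0 higher and 1 lower at an unadjusted p under 0.05. Their median log2 fold change was -0.27, and it was 0.012 with the processed signal of the scanner software at 75th percentile scaling, 0.066 without young adult array 1, 0.057 without aged array 1 and -0.53 without aged array 2. An offset of 50 gave -0.089 and no background correction -0.054. The median lies midway between *Cyp11b1* and *Cyp11b2*, which no array measured well above background, and with only probes that cleared it, 3 genes were left at a median of -0.36. *Cyp21a1*, which hydroxylates progesterone on the path to glucocorticoids, was at 186 and 132 in the young adult pools and 66.3 and 78.3 in the aged pools. The aged pools were lower without overlap, but the adjusted p of 0.26 by limma missed the limit. It passed in 8 of the 12 alternatives that use all arrays, where its log2 fold change ran from -1.94 to -0.19. Its 2 probes differed. One was at 219 and 71.4 in the young adult pools and 27.9 and 32.7 in the aged pools. It was not well above background on either aged array, and its measured values were 4.15-fold lower in aged mice. That fold rests on young adult array 1 and is 2.36-fold without it, so it is not firm. The other was at 158 and 243 in the young adult pools and 158 and 187 in the aged pools, a log2 fold change of -0.19. *Cyp17a1*, which leads to androgens, was at 3621 and 4564 in the young adult pools and 3062 and 3280.0 in the aged pools. The young adult pools differed widely from each other, and the gene was not called (log2 fold change -0.36, adjusted p = 0.457 by limma). Its log2 fold change was -0.53 without young adult array 1 and -0.19 without young adult array 2. *Cyp19a1*, the aromatase that makes oestrogens, was at 112 and 109 in the young adult pools and 110.3 and 125 in the aged pools, which overlapped (log2 fold change 0.091, adjusted p = 0.746 by limma). *Cyp11a1*, which cuts the side chain of cholesterol to begin steroid synthesis, was not well above background on any array.

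Families 24 and 26 break down vitamin D and retinoic acid, and 1 of their 4 genes was called, as lower, at a median log2 fold change of -0.42. The median was -0.11 with an offset of 50, -0.18 with no background correction and -0.23 without aged array 1, and it rests in part on *Cyp26c1*, which no array measured well above background. *Cyp26b1*, which clears retinoic acid, was at 4893 and 4559 in the young adult pools and 2724 and 2654 in the aged pools. Every aged value lay far below every young adult value. The means were 4726 ± 236 and 2689 ± 49.9 (SD, n = 2 pools), a log2 fold change of -0.81 (standard error 0.085, adjusted p = 0.185 by limma). *Cyp26a1*, the related clearing enzyme, was well above background on 1 young adult array only, and *Cyp24a1*, which inactivates the vitamin D hormone, on none. *Cyp2r1*, which begins the activation of vitamin D, was at 829 and 1316 in the young adult pools and 863 and 984 in the aged pools, which overlapped (adjusted p = 0.813 by limma). The receptors of these ligands were not called: *Vdr* had a log2 fold change of -0.34 (adjusted p = 0.288 by limma), and *Rara*, *Rarb* and *Rarg* had -0.14, 0.041 and 0.22. The bases before *Cyp26b1*, the only P450 DEG that fell, are from chr6:84593811-84594060 on the minus strand of the same assembly, with a TATAAA in capitals that begins 139 bases before the start.
Cyp26b1: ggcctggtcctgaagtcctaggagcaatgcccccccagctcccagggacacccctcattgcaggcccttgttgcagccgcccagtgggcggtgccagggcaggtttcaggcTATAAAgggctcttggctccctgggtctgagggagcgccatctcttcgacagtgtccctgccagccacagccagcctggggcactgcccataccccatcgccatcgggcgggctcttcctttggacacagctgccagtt

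The share of promoters with each motif was taken over the 250 bases before the start. Of the 101 P450 genes, 74 have an entry, with 84 promoters in all, and 11 of the 13 called genes have 12 promoters. TATAAA was in 12.4% of all 32851 promoters, in 33.3% of the P450 promoters and in 50% of those of called genes. AGGTCA was in 14%, 22.6% and 33.3%, and GCGTG in 28.2%, 19% and 8.33%. The 12 promoters include 2 windows of *Cyp3a25* that lie 1 base apart, so the AGGTCA matches of that gene count for both. With each gene counted once, a choice made after the values were seen, AGGTCA was in 15.8% of all genes, 24.3% of P450 genes and 27.3% of the 11 called genes. TATAAA was then in 14.3%, 36.5% and 54.5%, and GCGTG in 30.9%, 20.3% and 9.09%. The promoters of called genes are few, and the shares are descriptions with no test.

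P450 enzymes depend on partners for electrons and haem, and on nuclear receptors and other factors for their transcription. The list for these roles has 44 genes, among them *Star*, a cholesterol carrier that is no transcription factor. Of them limma called 2 higher (4.55%) and 1 lower (2.27%), none a DEG, with a median log2 fold change of 0.045. Of all genes 1.65% were called higher and 2.33% lower, the background here and for the lists below. The 1 lower call is near that background. With *Tbxas1* and *Ptgis*, P450 enzymes under other symbols, the list has 46 genes, with 2 called higher, 2 lower and a median of 0.039. At an unadjusted p under 0.05, 6 of the 46 were higher and 5 lower, beside 6.05% and 7.08% of all genes. Of 9 electron transfer genes, limma called 0, with 2 higher and 0 lower at an unadjusted p under 0.05. *Por*, the reductase that serves all P450 enzymes of the endoplasmic reticulum, was at 113887 and 119752 in the young adult pools and 120208 and 131167 in the aged pools (log2 fold change 0.10, adjusted p = 0.683 by limma). *Cyb5a*, the cytochrome that can supply a further electron, was at 93595 and 86720.0 in the young adult pools and 124268 and 113375 in the aged pools, without overlap and not called (log2 fold change 0.40, adjusted p = 0.3 by limma). Of 12 genes of haem synthesis and breakdown, 2 were called higher. *Hmox1*, which breaks haem down, was at 3708 and 3932 in the young adult pools and 5749 and 5611 in the aged pools, where both aged pools were the higher ones (log2 fold change 0.57, standard error 0.082, adjusted p = 0.209 by limma). *Alad*, an early enzyme of haem synthesis, was at 9850.4 and 9315 in the young adult pools and 13071 and 12824 in the aged pools (log2 fold change 0.43, standard error 0.081, adjusted p = 0.245 by limma). *Alas1*, the rate-limiting step of that synthesis, was at 17931 and 16673 in the young adult pools and 21957 and 21958 in the aged pools, without overlap and without a call (log2 fold change 0.34, adjusted p = 0.295 by limma).

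Of 23 genes listed as regulators, *Star* included, limma called 0 higher and 1 lower. *Nr1i2*, the pregnane X receptor that switches on *Cyp3a* genes, was at 104 and 109 in the young adult pools and 63.5 and 73.5 in the aged pools. It cleared background on 2 young adult arrays and 1 aged array, and both aged pools lay below the young adult ones (log2 fold change -0.64, adjusted p = 0.238 by limma). *Nr1i3*, the receptor behind the phenobarbital response, was at 151 and 99.3 in the young adult pools and 87.2 and 139 in the aged pools, which overlapped (adjusted p = 0.882 by limma). *Nfe2l2*, a factor of the response to oxidants, had a log2 fold change of 0.26 (adjusted p = 0.374 by limma). *Tbxas1*, thromboxane synthase, is a P450 enzyme under another symbol. It was at 227 and 212 in the young adult pools and 158 and 154 in the aged pools, lower in both aged pools (log2 fold change -0.49, standard error 0.084, adjusted p = 0.234 by limma). *Ptgis*, prostacyclin synthase, was not called (log2 fold change -0.13, adjusted p = 0.566 by limma).

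Markers of cell types in the mucosa were read beside these results. Of 5 sustentacular markers, limma called 0, with 0 higher and 2 lower at an unadjusted p under 0.05. Their summed intensity was 527935 and 523063 in the young adult pools and 482533 and 474216 in the aged pools, with *Cbr2* the most intense by the mean over the 4 arrays, as for the lists below. Probes of different genes are not on one scale, and *Ugt2a1* was above *Cbr2* on both young adult arrays. The lower aged sums come mainly from *Ugt2a1*, at means of 176993 and 136375. The members went both ways, with log2 fold changes of 0.13 for *Ermn*, 0.051 for *Sec14l3*, -0.068 for *Cbr2*, -0.26 for *Sult1c1* and -0.38 for *Ugt2a1*. Of 5 Bowman's gland markers, 1 was called higher, the secreted protein gene *Bpifb9b* (log2 fold change 2.17, adjusted p = 0.168 by limma). The list was mixed, with a median of -0.07 and 1 higher and 2 lower at an unadjusted p under 0.05, the lower ones being *Sox9* (-0.25) and *Obp2a* (-0.33). Their sums were 240854 and 240253 in the young adult pools and 226308 and 234859 in the aged pools, with *Obp2a* the most intense. Of 7 markers of mature olfactory neurons, 1 was called higher, *Stoml3* (log2 fold change 0.43, adjusted p = 0.244 by limma), with sums of 566223 and 557417 against 616965 and 625557 and *Omp* the most intense. Of 5 ciliated cell markers limma called 0, with 0 higher and 1 lower at an unadjusted p under 0.05, and their sums were 26324 and 25552 against 24482 and 24203, with *Tekt1* the most intense.

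Other lists moved more. Of 5 fibroblast markers, 0 were called higher and 3 lower, the collagen genes *Col1a1*, *Col1a2* and *Col3a1*, with log2 fold changes of -1.98, -1.52 and -1.97. The sums of this list were 234360.1 and 209177 in the young adult pools and 115865 and 107623 in the aged pools, and *Dcn* was its most intense gene by the mean, although *Col1a2* was above it on both young adult arrays. The fall of the sum comes mainly from the collagens. *Dcn* (log2 fold change -0.19, adjusted p = 0.628 by limma) and *Pdgfra* (-0.29, adjusted p = 0.433 by limma) were not called. Of 5 club and goblet cell markers, 2 were higher, *Scgb3a1* (log2 fold change 1.02) and *Muc5b* (0.44), and 1 was lower, *Muc5ac* (-2.10). Their sums were 50531 and 48467 in the young adult pools and 64116 and 65009 in the aged pools, with *Muc5b* the most intense. Of 6 pituitary markers, 2 were higher, *Prl* (log2 fold change 4.96) and *Gh* (8.9-fold as measured, with no young adult array well above background). The sums went from 1142 and 1214 to 9805 and 9284. The part of these lists in the P450 results was not tested. Liver and adrenal or gonad are organs rich in P450 enzymes, and their markers were mixed here. *Alb*, the albumin of hepatocytes, was at 21.6 and 26.2 in the young adult pools and 23.7 and 31.6 in the aged pools, above background on 1 array of each age, and *Apoa1* was not above it on any. Of 5 hepatocyte markers, 1 was called lower, *Ttr* (at least 2.26-fold), and the sums were 502 and 595 against 361 and 399.7, with *Tat* the most intense. *Tat*, at 227 and 299 in the young adult pools and 195 and 197 in the aged pools, and *Serpina1a*, at 169 and 176 against 104 and 139, were well above background on all 4 arrays. Of 4 adrenal or gonad markers listed, 3 were found, of which limma called 0, also at an unadjusted p under 0.05, with sums of 618 and 590.2 against 572 and 650.3 and *Nr5a1* the most intense. *Nr5a1*, at 340.4 and 377 against 348 and 385, and *Star*, at 243 and 185 against 199 and 237, were well above background on all 4 arrays.

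**Figure D5:**
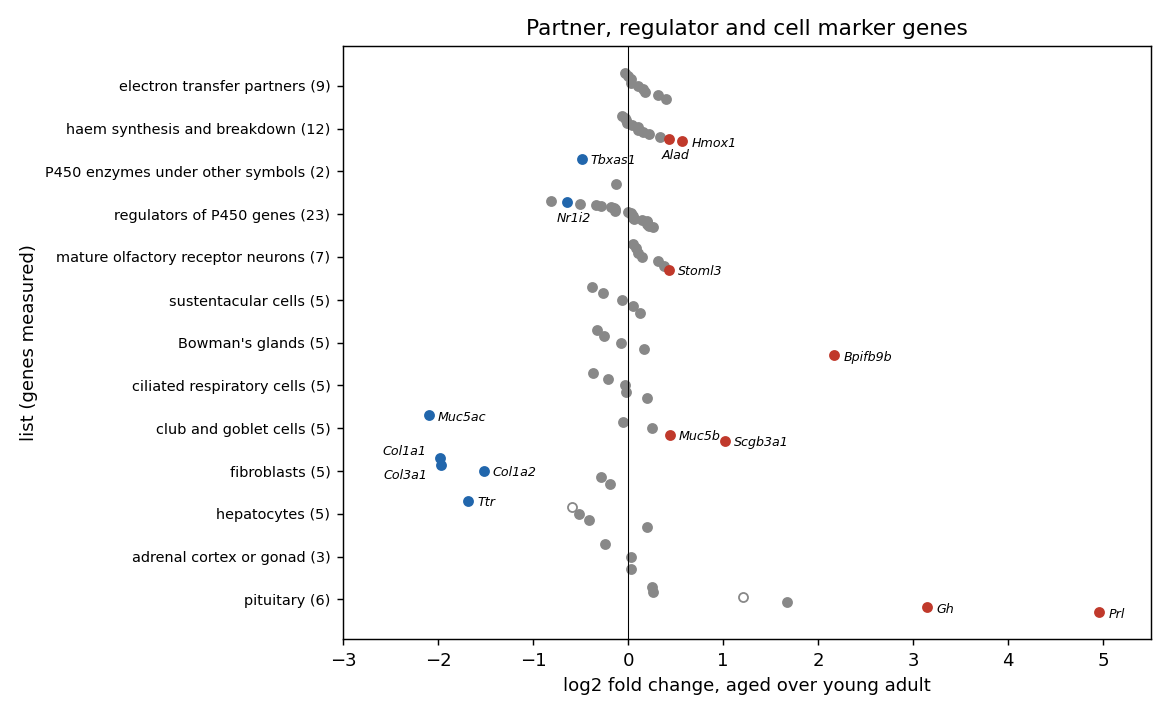
Log2 fold change (aged over young adult, horizontal axis) of each gene of the partner, regulator and cell marker lists (vertical axis, with the number of genes measured), with 1 point per gene. Named red and blue points passed the p and adjusted p limits, open points mark genes that no array measured well above background, and *Prl* lies at 4.96.

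Many P450 genes lie in clusters, but the counts here are per chromosome, which may hold several clusters and single genes far apart. They stand beside 1.65% of all genes called higher and 2.33% called lower. Chromosome 7 holds 15 of the genes measured, among them the *Cyp2a*, *Cyp2b*, *Cyp2f*, *Cyp2g* and *Cyp2s* genes, with 2 called higher, 0 lower and a median log2 fold change of 0.033. Chromosome 5 holds 10, with 3 higher, all *Cyp3a* genes, and a median of 0.45. Chromosome 9 holds 5, with 2 higher, the *Cyp1a* genes, 0 lower and a median of 0.36. That median is the value of *Cyp11a1*, which no array measured well above background. The log2 fold change of *Cyp11a1* ranged from 0.035 to 0.69 when single arrays were dropped, so the median is not firm. Its difference was -0.28 for the pair of arrays on one slide and 1 for the other pair. On chromosome 4, which holds 17 genes of the *Cyp2j*, *Cyp4a*, *Cyp4b*, *Cyp4x* and *Cyp7a* groups, 2 were higher, 1 was lower and the median was 0.14. Chromosome 19 holds 19, with 0 higher, 2 lower and a median of -0.05. Here the median is the value of *Cyp2c37*, well above background on 1 young adult array only. *Cyp2c37* was at 0.4 within the slide and -0.5 between the other arrays, and 9 of the 19 were well above background on no array. The 12 genes of chromosome 15 and the 12 of chromosome 17 held 0 calls by limma, with 0 and 1 higher and 1 and 1 lower at an unadjusted p under 0.05.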

How the data were processed

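RNA of 4 pools was measured on 4 Agilent one-colour arrays. The authors deposited, for each spot, median pixel intensity, local background intensity and a processed intensity of the scanner software (Feature Extraction 11.0.1.1), none normalized between arrays. They also deposited flags of the scanner software, a unit class of other. The series table holds the same values as the processed intensity, spot by spot, on each array (62976 of 62976; column medians 161, 148, 144 and 141). R 4.3.3 with limma 3.58.1 was used. Median intensity was corrected for background (normexp, offset 0). Control spots and outlier spots (88 to 118 per array) were left out, spots of a probe averaged, log2 values quantile normalized and probes of a gene averaged. RefSeq symbols (GRCm38.p6) matched 32994 of 56605 probes (58.3%); the array design uses another build, so the table's coordinates were not applied to probes. The ages were compared with lmFit and eBayes (2 residual and 1.38 prior degrees of freedom). Levels are normalized intensities and fold changes aged over young adult. "Well above background" is the scanner software's call for at least 1 probe. The procedure was tested on simulated data.

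Genes were named if called, if known from nasal tissue or for a defining reaction, if among the 5 largest rises or falls of genes well above background on both arrays of an age, or as called or defining members of the lists. *Xist*, the Y chromosome genes, and *Cyp2a22*, *Cyp2b9*, *Cyp4a12a* and other P450, partner and regulator genes outside this rule were chosen after their values were seen. Members and lists were chosen with earlier results of these data known. Alternatives were other offsets, background methods and scalings, kept outlier spots, dim probes left out, the most intense probe, an intensity trend, a replicate block, each array left out and other limits.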

Additional observations from a re-analysis of the deposited data

How the results depend on the processing

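Of the 9 higher P450 calls, 8 or 9 were shared by each alternative background, scaling, spot, probe and trend setting. Of the 4 lower calls, 1 was shared with scaling to the 75th percentile and 2 to 4 with the other such settings. The higher count was 14 with an offset of 50, 17 with only probes well above background (fewer genes tested) and 19 with an intensity trend. Over all genes these fits called 2107 of 45604, 3445 of 29495 and 3612 of 45604 higher, beside 754 of 45604 in the main fit. The lower count was 7 with processed signal and quantile normalization, 2 with scaling to the 75th percentile, 11 with only probes well above background and 8 with an intensity trend. Over all genes these fits called 2343 of 45604, 826 of 45604, 3706 of 29495 and 3518 of 45604 lower, beside 1063 in the main fit. The background filter also keeps genes that clear it in 1 age alone, so it depends in part on the change. The count of higher DEGs was 0 at a fold-change limit of 2. The count of lower DEGs was 2 with an offset of 16 or 50, no background correction or processed signal under either scaling, 3 with cyclic loess, only probes well above background or an intensity trend, and 0 at a fold-change limit of 2. Calls over all genes were 754 higher and 1063 lower in the main fit, and 1298 and 1691 with an offset of 16. They were 2107 and 2475 with an offset of 50, and 1788 and 2239 with no background correction. Processed signal and quantile normalization gave 2029 and 2343. An intensity trend gave 3612 and 3518, and only probes well above background 3445 and 3706 of 29495 genes. The partner and regulator count of 4 was 9 with an offset of 16, 11 with an offset of 50 and 10 with no background correction. It was 8 with processed signal and quantile normalization, 16 with only probes well above background and 20 with an intensity trend. All 5 counts were 0 in limma with an FDR below 0.05, with the replicate number as a block and with each array left out (range 0 to 0). At an unadjusted p under 0.05 the block held 13 higher and 8 lower P450 genes and 9 partner genes, the smallest adjusted p being 0.433. The arrays left out held 11 to 17, 6 to 9 and 4 to 6. The shares of all genes at that p with arrays left out are given in the Results, and the counts were not tested against them. The replicate numbers are not shown to pair pools. An array left alone in its group is assumed to vary like the others. The median of 0.033 was 0.14 with processed signal scaled to the 75th percentile (all genes 0.066) and 0.071 with it quantile normalized. It was 0.07 with scaling to the 75th percentile, 0.015 with an offset of 50 and 0.011 with the most intense probe. Within the shared slide it was 0.084, and with each array left out -0.0021 to 0.13. The cause was not tested. The slide as a random block could not be fitted with 4 arrays, and as a fixed block it leaves only the within-slide difference. The difference between the arrays on slides of their own was chosen after seeing the data.

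Some log2 fold changes near 0 or of dim probes turned sign. With processed signal scaled to the 75th percentile, the Cyp24a1 log2 fold change was -0.0041, with *Cyp2a4* at 0.083, *Cyp7a1* at 0.51, *Foxj1* at 0.0086 and *Ddx3y* at 0.56. With it quantile normalized, *Cyp24a1* was at -0.4, *Cyp2a4* at 0.024 and *Ddx3y* at 0.027. *Cyp2a4* was at 0.07 with scaling to the 75th percentile and 0.046 with cyclic loess, *Cyp24a1* at -0.027 with no background correction, and *Alb* at -0.0051 with the most intense probe. With each array left out, the lowest and highest values were -0.15 and 0.32 for *Cyp24a1*, -0.2 and 0.07 for *Cyp26a1*, -0.88 and 0.42 for *Cyp27b1*, -0.01 and 0.075 for *Cyp2a5*, -0.51 and 0.15 for *Cyp2r1*, -0.16 and 0.089 for *Foxj1*, -0.55 and 0.41 for *Scgb1a1*, -0.0015 and 0.41 for *Alb*, -0.16 and 0.23 for *Star*, -0.01 and 0.066 for *Xist* and -0.95 and 0.3 for *Ddx3y*. The cause was not tested. Signal over background limits the 27 P450 genes that no array measured well.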
